A study of Mus musculus with 2 samples.

Results

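The collagen chain genes were taken as every row of the deposited count matrices whose gene symbol is Col, a number, the letter a and a number, which gave 44 of the 34097 genes. They were measured by droplet single-cell RNA sequencing with 10x Genomics reagents. The unit is the unique molecular identifier (UMI), a tag that stands for 1 captured RNA molecule. The 2 samples came from mice and are labelled as xenografts of lung cancer grown from LLC, the Lewis lung carcinoma line. The first library is the control, and the other, the knockdown, carried an shRNA (short hairpin RNA) that targets Gfpt2. Gfpt2 encodes an amidotransferase of the hexosamine pathway, and the series asks how its knockdown bears on the tumour's immune cells and on communication between cells. The labels do not give the host strain, the age of the animals or the cells that carried the hairpin. With 1 library in each group there is no replicate check on any difference, no test was run, and the 95% intervals cover counting error only.

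Collagens are triple helices of 3 alpha chains, each chain from its own gene, and a molecule can hold copies of 1 chain or chains of different genes. Fibrillar collagens form the banded fibrils of connective tissue, type IV collagen forms the network of basement membranes, type VI forms beaded filaments around cells, and fibril-associated collagens sit on the surface of fibrils. In solid tumours most collagen is laid down by fibroblasts and, in some tumours, by the tumour cells themselves, and it contributes to the stiffness and permeability of the tissue.

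The control library held 11977 cells and 165824226 UMIs, and the knockdown library 12853 cells and 138402860 UMIs. After removal of poor cells and doublets, 10662 and 11450 cells were kept, and 37 cell barcodes were shared by the libraries. Tumour-like cells were kept cells with no Ptprc UMI (Ptprc is CD45, the leukocyte antigen), under 5 Lyz2 UMIs per 10000 and at least 5000 UMIs. They numbered 4986 (control) and 5211 (knockdown). Macrophages had at least 10 C1qa, C1qb and C1qc UMIs per 10000 (3990 and 4556 cells), and served as the measure of collagen RNA found in droplets of another cell type. The classes are not exclusive, and 12 control and 34 knockdown cells met the rules of both tumour-like cells and macrophages. The same was done with T cells, taken as cells with at least 3 Cd3d, Cd3e and Cd3g UMIs per 10000 and under 10 of C1q (665 and 562 cells, of which 3 and 9 were also tumour-like). Levels are CPM, the summed UMIs of a gene for every 1000000 UMIs of a class in a library.

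Tumour-like cells were split by the summed share of Dcn, Postn, Dpt, Cilp and Osr2, genes of matrix proteins and of a transcription factor of connective tissue. The top 15% over both libraries are called matrix-high and the others matrix-low. The cut fell at 35.3 UMIs per 10000, with the nearest cells at 35.36 inside and 35.29 outside it in the control library, and 206 control and 244 knockdown cells lay within 10% of it. The score is a continuous range and the class is no cell type. Matrix-high cells were 728 in the control library (14.6% of tumour-like cells, exact binomial interval 13.6 to 15.6) and 802 in the knockdown library (15.4%, 14.4 to 16.4). No collagen gene entered the score, but the score comes from the same cells, so differences between the classes are given as descriptions.

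Gfpt2 was examined first because it checks the labels. Over all kept cells its level was 1.76 CPM (1.54 to 1.99, control) and 0.574 CPM (0.445 to 0.727, knockdown). In matrix-low cells it stood at 2.07 CPM (1.78 to 2.38) and 0.439 CPM (0.304 to 0.613). In matrix-high cells it rested on 21 and 23 UMIs, at 1.87 CPM (1.16 to 2.87, control) and 2.26 CPM (1.43 to 3.39, knockdown). Its intervals lie apart in matrix-low cells and overlap in matrix-high cells, and the difference between the classes was not tested.

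Markers were read beside the classes. Hmga2, an oncofetal chromatin protein read here as a marker of Lewis lung carcinoma cells, stood at 78.6 and 95.5 CPM in control and knockdown matrix-high cells and at 237 and 235 CPM in matrix-low cells, while Krt8, Krt18 and Epcam of the same list were at or near 0 (0.103 CPM at most). Of 10 fibroblast markers, 7 were tested in each library and 5 (Pdgfra, Pdgfrb, Fap, Lum and Mfap5) were at least 2-fold higher in matrix-high cells, where 5.79% (control) and 3.51% (knockdown) of all genes tested were. Pdgfra, a growth factor receptor of fibroblasts, stood at 111 and 136 CPM in matrix-high and 34.0 and 40.3 CPM in matrix-low cells, while Thy1, Pi16 and Tcf21 were at or under 0.590 CPM. The summed level of the fibroblast list was 938 and 1064 CPM in matrix-high cells and 751 and 820 CPM in matrix-low cells, most of it from Cd34. Xist, the RNA of the inactive X chromosome, stood at 2.88 and 3.99 CPM in tumour-like cells against 493 and 394 CPM in macrophages. The endothelial list summed to 1.52 and 2.07 CPM in matrix-high and 8.54 and 9.87 CPM in matrix-low cells. Matrix-high cells were also shallower, with a median of 14122 and 11662 UMIs against 19752 and 15594 in matrix-low cells, and had less Top2a, a gene of dividing cells (142 and 111 CPM against 265 and 293 CPM). Pericyte and smooth muscle genes summed to 37.2 and 34.9 CPM in matrix-high and 53.2 and 55.9 CPM in matrix-low cells, most of it from Cspg4. The sum and the tested genes differed in direction in the control library, where the median log2 ratio of 3 tested was 0.47 and Acta2 was higher (4.11 against 1.02 CPM), while in the knockdown library the median of 4 was -0.73 and Rgs5 was lower (0.393 against 1.52 CPM). Cartilage and tendon genes summed to 100.1 and 116 CPM against 134 and 156 CPM, most of it Sox9, and macrophage genes to 204 and 233 CPM against 186 and 217 CPM. The Schwann cell, skeletal muscle, T cell and adipocyte lists summed to 5.87 CPM or less in every class. What part fibroblast-like content or depth has in the differences below was not tested.

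Collagen UMIs came from few genes. Col3a1 alone gave 48.6% of the collagen UMIs of control tumour-like cells and 50.5% of those of knockdown cells. The leading 4, Col3a1, Col6a1, Col6a3 and Col6a2, gave 76.9% and 77.7%, and the leading 13 gave 98.8% and 98.7%. Of the 44 genes, 17 had 1000 or more UMIs in tumour-like cells of both libraries together, 25 had at least 50, and 19 had between 1 and 37. A UMI stands for a molecule whatever the transcript's length, so no length scaling was applied, and orders of level between genes are orders of UMIs, in which capture can differ from gene to gene.

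**Figure D1:**
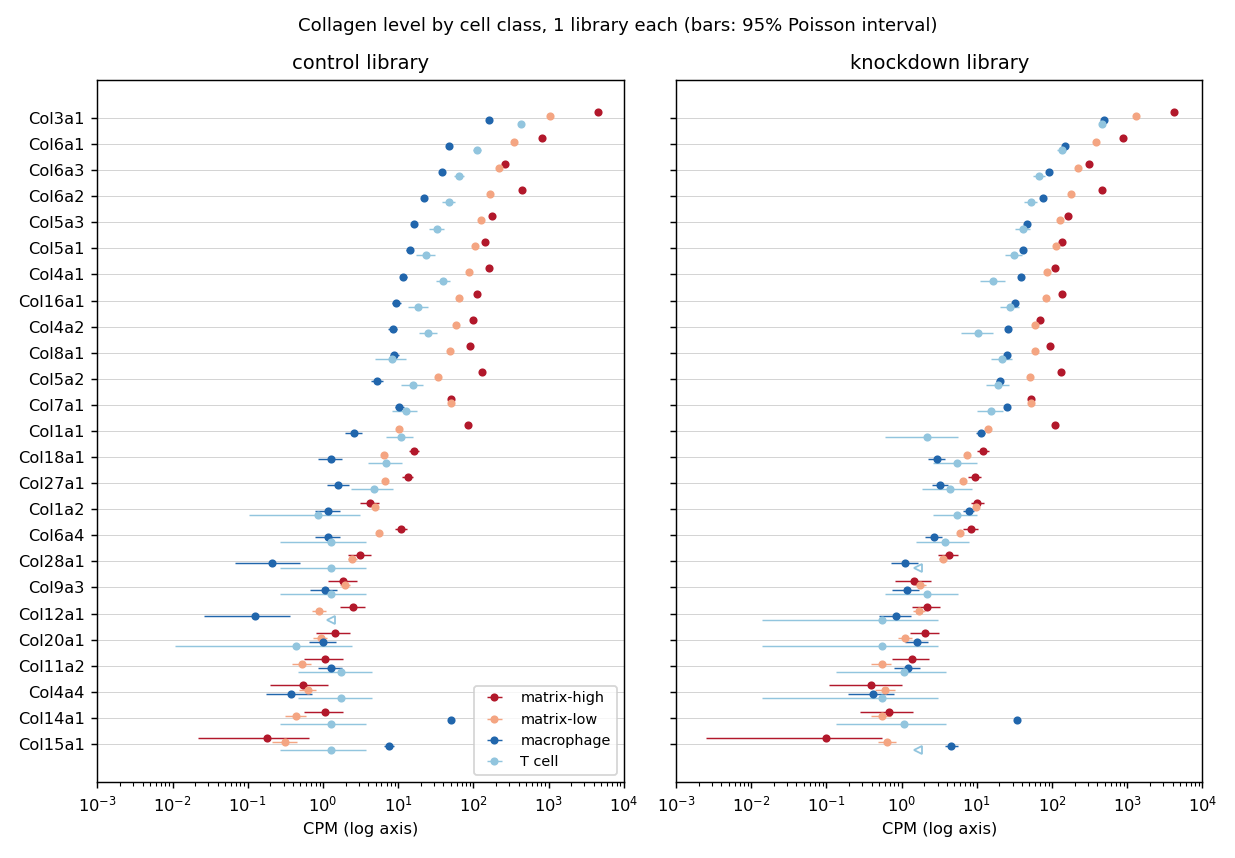
CPM on a log axis of the 25 collagen genes with at least 50 UMIs in tumour-like cells, in order of those UMIs, in 4 cell classes of the control (left) and knockdown (right) library; points are single libraries, bars are 95% Poisson intervals and open triangles mark 0 UMIs, drawn at 3 counts of the class. Col3a1 leads at 4493 and 4187 CPM in matrix-high cells, and Col14a1 and Col15a1 lie far higher in macrophages than in tumour-like cells.

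As a group the collagens were higher in matrix-high cells. Their sum was 7139 CPM (7090 to 7189) in control matrix-high cells against 2386 CPM (2376 to 2396) in matrix-low cells, and 6887 CPM (6836 to 6938) against 2779 CPM (2767 to 2791) in the knockdown library. That is 2.99-fold and 2.48-fold. A range beside a ratio is the widest that the 95% intervals of its levels give. A gene counted as higher or lower at 2-fold or more and was tested with at least 50 UMIs over both classes of a library. In the control library 10 of 24 tested members were higher and 0 were lower, where 5.79% of the 13430 genes tested were higher and 3.96% lower. In the knockdown library 6 of 24 were higher, where 3.51% of 13351 genes were, and 1 was lower, where 5.12% were. The median log2 ratio of the tested members was 0.88 for the control and 0.47 for the knockdown, against 0.11 and 0.03 over all genes tested. The other 20 members had too few UMIs for this comparison in each library. Col3a1, Col1a1, Col5a2, Col6a1 and Col6a2 were higher in both libraries, and stayed past 2-fold under each of 14 alternative settings.

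**Figure D2:**
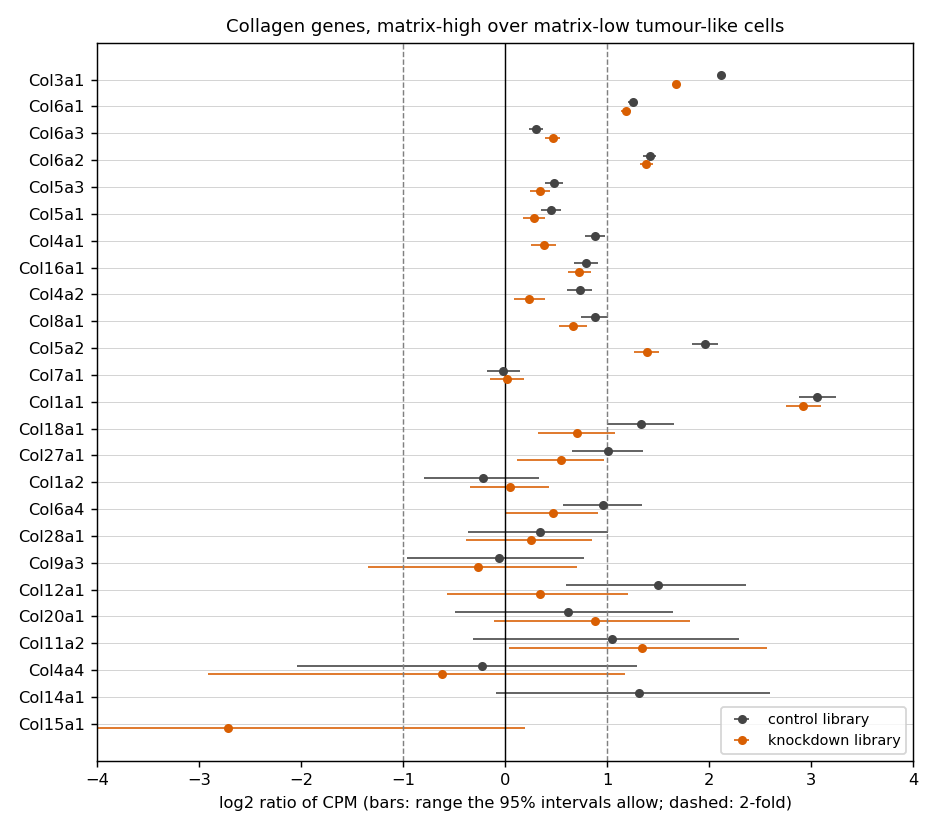
Log2 ratio of CPM, matrix-high over matrix-low tumour-like cells, for each collagen gene tested in a library; points are single libraries (grey control, orange knockdown), bars the widest ratios that the 95% intervals of its levels give, and dashed lines 2-fold. Col1a1 lies farthest right at 3.06 and 2.92, Col7a1 and Col1a2 sit near 0, and the bar of Col15a1, which rests on 1 UMI in matrix-high cells, runs past the axis.

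Fibrillar collagens made up most of the difference. Their summed level was 5045 CPM in control matrix-high and 1322 CPM in matrix-low cells, and 4749 and 1632 CPM in the knockdown library. Col3a1 encodes the single chain of type III collagen, which forms the fine fibrils of soft organs and of early scar tissue. It stood at 4493 CPM in control matrix-high cells and 1037 CPM in matrix-low cells, and at 4187 and 1309 CPM in the knockdown library. The higher class was 4.33-fold and 3.20-fold above the lower, and the intervals of the classes lie far apart. With every cell thinned to 2000 UMIs, Col3a1 was found in 96.8% of control matrix-high and 63.1% of matrix-low cells, and in 99.0% and 72.9% in the knockdown library (unthinned 99.9%, 94.0%, 99.9% and 97.1%). In thinned macrophages the shares were 13.03% and 32.3%, and in thinned T cells 18.4% and 20.8%. A gene model on the same strand, Gm47302, overlaps Col3a1 in the reference annotation, and such reads cannot be assigned with certainty.

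The RefSeq sequence before the annotated start of Col3a1, the gene with the most collagen UMIs, is shown with the TATAAA motif in capitals (GRCm38.p6, chr1:45311288-45311537, plus strand, the strand of the gene), since TATAAA was found in no other window among the genes with 1000 or more UMIs. The 250 bases hold 35.2% G and C, and the motif starts 117 bases before the start.
Col3a1: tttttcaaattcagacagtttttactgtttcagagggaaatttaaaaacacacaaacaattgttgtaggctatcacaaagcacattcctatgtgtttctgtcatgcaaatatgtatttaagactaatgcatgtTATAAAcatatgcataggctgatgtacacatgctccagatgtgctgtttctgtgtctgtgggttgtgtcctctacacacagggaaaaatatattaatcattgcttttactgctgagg

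Col3a1 lies beside Col5a2 on chromosome 1, with no other protein-coding gene of the reference table between them. Col5a2 encodes a chain of type V collagen, which lies inside the major fibrils and limits their diameter. It stood at 131 CPM in control matrix-high and 33.7 CPM in matrix-low cells, and at 133 and 50.9 CPM in the knockdown library, so the higher class was 3.89-fold and 2.61-fold above the lower. The other type V chains differed less between the classes. Col5a1 stood at 141 and 104 CPM in control matrix-high and matrix-low cells and at 137 and 113 CPM in the knockdown library. Col5a3 stood at 175 and 126 CPM and at 162 and 128 CPM, and both chains were under 2-fold. Col5a1 UMIs per Col5a2 UMI were therefore 1.08 (0.976 to 1.19) in control matrix-high and 3.08 (2.91 to 3.25) in matrix-low cells, and 1.03 (0.930 to 1.15) and 2.22 (2.11 to 2.34) in the knockdown library. The chain ratio was lower in matrix-high cells of both libraries, with intervals that do not overlap.

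Type I collagen, the main collagen of bone, tendon and skin, is built from alpha1 chains of Col1a1 and alpha2 chains of Col1a2. Both genes were low beside Col3a1. Col1a1 stood at 85.8 CPM (961 UMIs) in control matrix-high and 10.3 CPM (951 UMIs) in matrix-low cells, and at 108 CPM (1096 UMIs) and 14.2 CPM (1104 UMIs) in the knockdown library. This was 8.34-fold (7.34 to 9.48) and 7.57-fold (6.72 to 8.52), the largest ratios among the tested members. Its UMIs lay in 35.7% of control matrix-high and 9.53% of matrix-low cells, and in 34.8% and 10.7% in the knockdown library, against 0.902% of control and 3.20% of knockdown macrophages, whose median depth was 5380 and 3954 UMIs.

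Col1a2 did not follow Col1a1. It stood at 4.20 CPM (47 UMIs) in control matrix-high and 4.88 CPM (451 UMIs) in matrix-low cells, and at 10.1 CPM (103 UMIs) and 9.79 CPM (759 UMIs) in the knockdown library. The ratios were 0.860 (0.576 to 1.26) and 1.03 (0.786 to 1.35), and the intervals of the classes overlap in each library. Col1a1 UMIs per Col1a2 UMI were 20.4 (14.4 to 29.6) in control matrix-high against 2.11 (1.80 to 2.47) in matrix-low cells, and 10.6 (8.26 to 13.8) against 1.45 (1.28 to 1.66) in the knockdown library.

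The RefSeq sequence before the start of Col1a2 is shown for contrast with that of Col3a1, with the GGGCGG and CCAAT motifs of the gene's strand in capitals (GRCm38.p6, chr6:4505368-4505617, plus strand). Its 250 bases hold 62.0% G and C.
Col1a2: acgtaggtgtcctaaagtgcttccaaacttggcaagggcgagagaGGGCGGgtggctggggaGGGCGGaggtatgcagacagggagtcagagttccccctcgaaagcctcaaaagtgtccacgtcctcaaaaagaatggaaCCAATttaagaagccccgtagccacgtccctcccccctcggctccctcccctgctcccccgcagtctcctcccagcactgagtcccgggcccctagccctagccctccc

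Motifs were searched on both strands in windows from 250 bases before to 50 bases after each start. Of the 44 genes, 35 had an entry in the RefSeq table, with 38 windows, and 15 of the 17 genes with 1000 or more UMIs were among them. GGGCGG was in 23 of the 38 windows (60.5%) against 35.7% of all 32851 windows, CCAAT in 13 (34.2%) against 37.4%, and TATAAA in 5 (13.2%) against 13.6%. Among the windows of genes with 1000 or more UMIs, TATAAA was found in that of Col3a1 alone. These matches describe letters in a window and show no binding.

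Other fibrillar chains were low. Col27a1, a fibrillar collagen known from cartilage, stood at 13.5 and 6.72 CPM in control matrix-high and matrix-low cells and at 9.44 and 6.45 CPM in the knockdown library. It was 2.01-fold higher in the control (range 1.57 to 2.55) and 1.46-fold higher in the knockdown library, and in the control library it fell below 2-fold under 6 of 14 alternative settings, with the lowest log2 ratio, 0.89, under TMM scaling and under the median of ratios. Col11a2, a chain of cartilage type XI collagen, passed 2-fold in both libraries on 12 and 14 UMIs, at 1.07 against 0.519 CPM and 1.38 against 0.542 CPM. In the control library Col11a2 fell below 2-fold under 6 of the 14 alternatives, with the lowest log2 ratio, 0.43, for the top 30%, and in the knockdown library it was 0.68 with Lyz2 and C1q under 2 per 10000. Its level in macrophages, 1.26 and 1.21 CPM, was of like size, so these counts lie at the level found in cells of another type.

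Type VI collagen, a heterotrimer of alpha1, alpha2 and alpha3 chains that links cells to the fibrils around them, was the next most abundant. Col6a1 stood at 828 CPM in control matrix-high and 348 CPM in matrix-low cells, and at 870 and 384 CPM in the knockdown library. Col6a2 stood at 450 and 168 CPM, and at 467 and 179 CPM. Both were past 2-fold, Col6a1 at 2.38-fold and 2.27-fold and Col6a2 at 2.67-fold and 2.61-fold. Col6a3, the third chain, was higher by less, at 266 and 216 CPM in control and 307 and 222 CPM in knockdown cells, which is 1.23-fold (1.17 to 1.29) and 1.38-fold (1.31 to 1.45). Col6a1 and Col6a2 are neighbours among the protein-coding genes of chromosome 10, and Col6a3 is not their neighbour. Col6a1 UMIs per Col6a2 UMI were 1.84 (1.75 to 1.93) in control matrix-high against 2.06 (2.01 to 2.12) in matrix-low cells, and 1.86 (1.77 to 1.96) against 2.14 (2.08 to 2.21) in the knockdown library, lower in matrix-high cells with intervals that do not overlap. Col6a3 UMIs per Col6a1 UMI were 0.322 (0.304 to 0.340) in control matrix-high against 0.622 (0.607 to 0.637) in matrix-low cells, and 0.353 (0.333 to 0.373) against 0.580 (0.565 to 0.595) in the knockdown library. Col6a4 stood at 10.9 and 5.59 CPM and at 8.26 and 5.97 CPM, and Col6a5 and Col6a6 had under 50 UMIs.

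Type IV collagen, the network of basement membranes, came from its common chains. Col4a1 stood at 160 CPM in control matrix-high and 86.8 CPM in matrix-low cells, and at 111 and 85.6 CPM in the knockdown library. Col4a2 stood at 97.9 and 59.0 CPM and at 69.2 and 58.8 CPM. Neither passed 2-fold, with 1.84-fold and 1.30-fold for Col4a1 and 1.66-fold and 1.18-fold for Col4a2. The chains kept their ratio: Col4a1 UMIs per Col4a2 UMI were 1.63 (1.47 to 1.81) and 1.60 (1.40 to 1.83) in matrix-high cells and 1.47 (1.40 to 1.54) and 1.46 (1.38 to 1.54) in matrix-low cells. A few tumour-like cells carried Xist and endothelial RNA: the 33 control and 44 knockdown cells with at least 2 Xist UMIs held Pecam1, an endothelial adhesion molecule, at 122 and 181 CPM and Col4a1 at 448 and 605 CPM. Without every cell that held an Xist UMI, Col4a1 stood at 92.7 and 85.3 CPM over tumour-like cells against 94.6 and 88.6 CPM with them. Col4a3 and Col4a4, chains of kidney and eye basement membranes, had 13 and 115 UMIs in all, and Col4a5 and Col4a6 had 1 and 5.

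Col4a1 and Col4a2 are transcribed away from each other, and their start windows share 78 bases. They are printed because these chains had like ratios in matrix-high and matrix-low cells (GRCm38.p6, chr8:11312777-11312854, plus strand, the strand of Col4a2, with a GGGCGG motif in capitals), and 73.1% of the shared bases are G or C.
Col4a1 and Col4a2: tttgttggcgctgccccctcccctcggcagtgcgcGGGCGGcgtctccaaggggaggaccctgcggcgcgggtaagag

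Among the remaining collagens Col16a1, a fibril-associated collagen, and Col8a1, a short-chain collagen of vessel walls, were the most abundant. Col16a1 stood at 113 and 65.1 CPM in control matrix-high and matrix-low cells and at 135 and 81.9 CPM in the knockdown library. Col8a1 stood at 90.7 and 49.4 CPM and at 92.5 and 58.5 CPM. Both were above 1.5-fold and under 2-fold in each library. Col7a1, the chain of the anchoring fibrils that tie skin to its base, was near level between the classes, at 50.2 and 50.8 CPM in control and 53.0 and 52.2 CPM in knockdown cells (ratio 0.988, 0.882 to 1.104, and 1.02, 0.903 to 1.14). Col18a1, a proteoglycan of basement membranes and the source of endostatin, stood at 16.2 and 6.48 CPM and at 12.2 and 7.50 CPM. This was 2.51-fold and 1.63-fold, and the difference between the libraries was not tested. Col12a1, a fibril-associated collagen, stood at 2.50 CPM (28 UMIs) and 0.887 CPM (82 UMIs) in the control, 2.82-fold (1.51 to 5.12), and at 2.16 and 1.70 CPM in the knockdown library, 1.27-fold. Col28a1 and Col9a3 stood between 1.48 and 4.23 CPM in the classes of tumour-like cells, with intervals that overlap between them, and Col20a1 between 0.930 and 2.07 CPM.

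Along the score Col3a1, Col1a1, Col5a2, Col6a1, Col6a2 and Col16a1 were higher at each step in both libraries. Over 6 ranges of the score, set by percentiles of both libraries together, Col3a1 stood at 365, 769, 1465, 2689, 3936 and 5598 CPM in the control library from the lowest range to the highest. It stood at 561, 1001, 1754, 2534, 3776 and 5176 CPM in the knockdown library. Col1a1 went from 1.88 to 120 CPM and from 3.21 to 140 CPM, Col5a2 from 13.1 to 172 CPM and from 28.2 to 163 CPM, and Col6a1 from 172 to 860 CPM and from 216 to 1023 CPM. Other leading genes had fewer steps up: of 5, Col6a3 had 5 (control) and 4 (knockdown), Col4a1 and Col4a2 had 5 and 3, Col5a1, Col5a3 and Col8a1 had 4 and 4, Col7a1 had 3 and 2, and Col1a2 had 2 in each. The lowest range held less of these genes in the control than in the knockdown library. Col7a1 stayed between 46.8 and 58.9 CPM in control cells and between 48.3 and 55.6 CPM in knockdown cells. Col1a2 lay between 3.20 and 5.96 CPM in the control library, and at 6.65, 9.68, 12.7, 11.0, 10.2 and 10.04 CPM from the lowest range to the highest in the knockdown library. The ranges share their cells' depth and were cut on genes of the same cells, so the trend is a description.

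**Figure D3:**
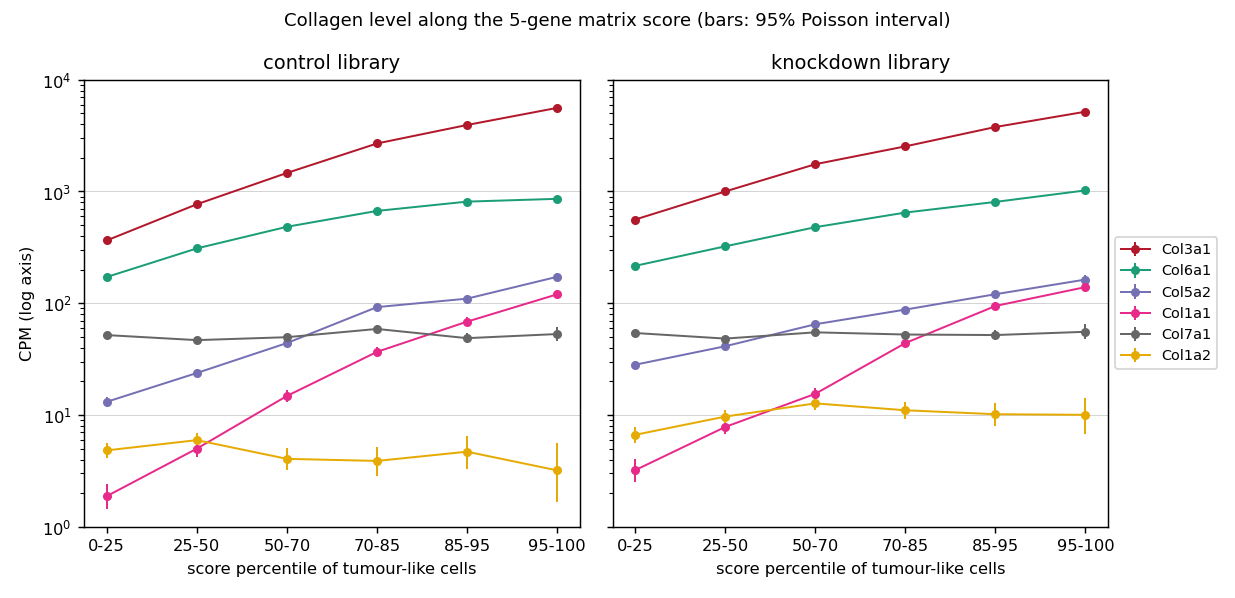
CPM on a log axis of 6 collagen genes in 6 ranges of the 5-gene score, given as percentiles of all tumour-like cells, in the control (left) and knockdown (right) library; points are single libraries and bars 95% Poisson intervals. Col3a1, Col6a1, Col5a2 and Col1a1 climb at every step, Col1a1 from 1.88 to 120 CPM in the control library, while Col7a1 and Col1a2 show no steady climb.

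At a fixed depth of 2000 UMIs, the median matrix-high cell held 13 collagen UMIs in both libraries, and the median matrix-low cell 4 in control and 5 in knockdown cells. Matrix-high cells held UMIs of 4 different collagen genes in the median and matrix-low cells of 3, in both libraries. The 10th and 90th percentiles of collagen UMIs were 5 and 27 in control matrix-high cells and 1 and 12 in control matrix-low cells, so single cells of the classes overlap. No tumour-like cell was left out by the thinning, and 605 control and 984 knockdown macrophages were.

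Between the libraries, matrix-high cells differed little in collagen. The sum was 7139 CPM (control) and 6887 CPM (knockdown), for a log2 ratio of -0.05 (-0.07 to -0.03). At a threshold of 1.5-fold, 1 of 19 tested members was higher and 0 were lower, where 1.77% of 11176 genes were higher and 2.32% lower, and the median log2 ratio was 0.02 against -0.02 over all genes. The gene was Col1a2, at 4.20 CPM (47 UMIs, control) and 10.1 CPM (103 UMIs, knockdown), for a log2 ratio of 1.27 (0.57 to 1.99). In macrophages Col1a2 stood at 24.6% (14.9 to 38.8, control) and 78.9% (63.1 to 98.3, knockdown) of its tumour-like level. The knockdown share depended on how macrophages were defined, with 34.6% where a Ptprc UMI was required, 29.6% with C1q at 30 or more per 10000, 41.2% with no Hmga2 UMI and 77.6% without doublet removal, and the control share lay between 15.2% and 45.0%. The part of that background in its difference was not tested. Col4a1 and Col4a2 lay on the lower side together, at 160 and 111 CPM (log2 ratio -0.52, -0.68 to -0.37) and at 97.9 and 69.2 CPM (-0.50, -0.69 to -0.31), without reaching 1.5-fold. In cells with 10000 UMIs or more, the ratio of Col4a2 was -0.60, past the threshold. The lower side was not particular to type IV: Col27a1 stood at -0.51 and Col18a1 at -0.41, and Col27a1 reached -0.63 with every cell weighted equally. Of the 19 tested members 9 lay under 0 and 10 above it. Col1a1 stood at 85.8 and 108 CPM (0.33, 0.15 to 0.51) and Col3a1 at 4493 and 4187 CPM (-0.10, -0.13 to -0.08).

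In matrix-low cells the collagen sum was 2386 CPM (control) and 2779 CPM (knockdown), for a log2 ratio of 0.22 (0.21 to 0.23). Of 25 tested members, 4 were higher by 1.5-fold or more and 0 were lower, where 5.13% of 14561 genes were higher and 1.37% lower. The median log2 ratio of the members was 0.14, against 0.06 over all genes, and 20 of the 25 lay above 0. The higher genes were Col5a2, at 33.7 and 50.9 CPM (0.60, 0.50 to 0.69), Col1a2, at 4.88 and 9.79 CPM (1.01, 0.77 to 1.24), Col12a1, at 0.887 and 1.70 CPM (0.94, 0.37 to 1.52), and Col15a1, at 0.314 and 0.645 CPM (1.04, 0.09 to 2.02). Col3a1 stood at 1037 and 1309 CPM (0.34, 0.32 to 0.35) and so lay on the other side of 0 from its ratio in matrix-high cells. Col15a1, a collagen of vessel and muscle basement membranes, rested on 29 and 50 UMIs, and in tumour-like cells with no Xist UMI 12 and 10 were left. Its log2 ratio was 0.10 without the cells that held an Xist UMI and 0.01 in cells of 10000 UMIs or more. Col5a2 lies at the edge of the threshold and fell below it under 5 of 14 alternatives, at 0.57 with the top 10% and with every cell weighted equally, 0.54 with TMM scaling and with the median of ratios, and 0.56 without Krt16 cells.

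Depth and cell content differed between the libraries beside these values. In matrix-low cells 3 of the 4 tested pericyte and smooth muscle markers were higher by 1.5-fold or more in the knockdown, where 5.13% of all genes were: Rgs5 (0.368 and 1.52 CPM, on 34 and 118 UMIs), Acta2 (1.02 and 4.04 CPM) and Des (1.35 and 2.14 CPM). The list's median log2 ratio was 1.33, and its sum 53.2 and 55.9 CPM. Of the fibroblast markers 3 of 8 were higher (Thy1, Fap and Mfap5), with sums of 751 and 820 CPM, of the T cell markers 3 of 5 (Cd3d, Cd3g and Cd8a; 3.73 and 5.87 CPM), and of the macrophage markers 0 of 7 (186 and 217 CPM). Of 8 endothelial markers Kdr and Emcn were higher and Cldn5 and Vwf lower, with sums of 8.54 and 9.87 CPM. In matrix-high cells Des was higher (1.87 and 3.44 CPM, on 21 and 35 UMIs) and Acta2 lower (4.11 and 2.46 CPM, on 46 and 25 UMIs) of 3 tested pericyte and smooth muscle markers. Xist was higher there too (2.41 and 3.64 CPM, on 27 and 37 UMIs), and the ranges of these 3 ratios include no difference. The part of these cells in the collagen differences was not tested. Matrix-low cells had a median of 19752 UMIs in control and 15594 in knockdown cells. Of the score genes, Postn stood at 117 and 163 CPM in control and knockdown matrix-low cells, and Dcn at 624 and 681 CPM. Osr2 stood at 40.5 and 47.7 CPM and Cilp at 8.54 and 13.1 CPM, while Dpt was not higher, at 47.4 and 46.6 CPM. The part of this shift in score in the collagen difference was not tested. Cells with at least 1 Krt16 UMI per 10000 (Krt16 is a keratin) numbered 161 among control and 56 among knockdown tumour-like cells, and in the control library they held Col3a1 at 350 CPM, against 1452 CPM in the other tumour-like cells. In the knockdown library they held it at 1209 CPM, against 1648 CPM in the others. Without them the summed ratio in matrix-low cells was 0.19, an alternative chosen after the data were seen. With cells of 10000 UMIs or more it was 0.19 too, and -0.12 in matrix-high cells.

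**Figure D4:**
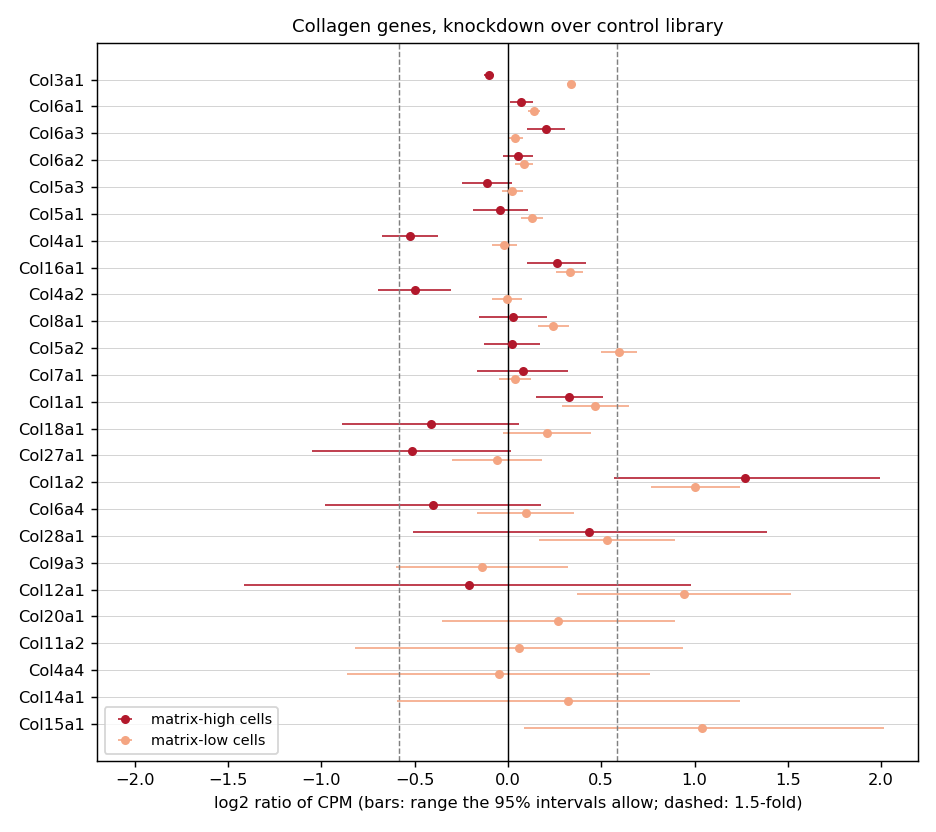
Log2 ratio of CPM, knockdown over control library, of each collagen gene tested in matrix-high (dark red) and matrix-low (light) tumour-like cells; points come from 1 library per group, bars are the widest ratios that the 95% intervals of its levels give, and dashed lines mark 1.5-fold. Col1a2 lies right of the line in both classes at 1.27 and 1.01, and Col4a1 and Col4a2 lie near -0.5 in matrix-high and near 0 in matrix-low cells.

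Macrophages held collagen RNA in a pattern close to that of the tumour-like cells, at a lower level. The collagen sum in macrophages was 425 CPM (417 to 434) in control and 1128 CPM (1114 to 1142) in knockdown cells, which is 14.7% and 34.7% of the tumour-like level. The 13 leading genes stood between 11.2% and 20.5% of their tumour-like level in the control and between 29.5% and 48.3% in the knockdown library. Genes of the tumour-like cells outside the family gave like shares: Hmga2 stood at 14.9% and 40.4% of its tumour-like level, Dcn at 12.2% and 27.5%, Postn at 14.2% and 32.3%, and Sox9 at 10.6% and 41.1%. In T cells the same 13 collagen genes stood between 15.2% and 58.5% in the control and between 8.69% and 35.0% in the knockdown library. Among macrophages with a Ptprc UMI, of which none are also tumour-like by their rule, the share of the collagen sum was 12.2% and 25.8%. Without the removal of doublets the macrophage share of the collagen sum was 42.4% and 52.8%, and in macrophages with no Hmga2 UMI, an alternative chosen after the data were seen, 11.1% and 20.7%.

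Set against each other with doublets removed, the macrophages of the knockdown library had more collagen RNA. Of 22 tested members 18 were higher by 1.5-fold or more, where 13.8% of 13210 genes were, and 1, Col15a1, was lower, where 1.82% were. Col3a1 stood at 162 CPM in macrophages of the control and at 484 CPM in those of the knockdown, a 2.98-fold difference. Both depend on the removal of doublets. Without it 5 of 23 tested members were higher, where 5.75% of all genes were, 1 was lower, and Col3a1 stood at 584 and 834 CPM, 1.43-fold. With the other macrophage definitions, chosen for this comparison after the data were seen, 15 of 17, 17 of 19 and 15 of 18 were higher (a Ptprc UMI, C1q at 30 or more, no Hmga2 UMI), where 11.2%, 11.3% and 8.96% of all genes were, and Col3a1 was 2.50-fold, 3.29-fold and 2.21-fold higher. Hmga2 moved the same way, from 32.8 to 88.2 CPM, and was found in 9.57% and 17.7% of macrophages. The part of tumour RNA in these droplets in the difference was not tested, and free RNA, mixed droplets and RNA made by macrophages cannot be told apart for these genes.

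Col14a1 and Col15a1 ran the other way. Col14a1 encodes a fibril-associated collagen. It stood at 50.4 CPM (1196 UMIs) in control macrophages against 0.502 CPM (52 UMIs) in tumour-like cells, and at 34.6 CPM (745 UMIs) against 0.559 CPM (49 UMIs) in the knockdown library. The log2 ratios were 6.65 (6.18 to 7.15) and 5.95 (5.44 to 6.49). At 2-fold, 3 of 25 tested members were higher in macrophages in the control library, where 21.0% of 14704 genes were (Col14a1, Col15a1 and Col11a2), and 19 were lower, where 24.7% were. In the knockdown library 2 were higher, where 19.9% of 14646 genes were (Col14a1 and Col15a1), and 18 were lower, where 16.3% were. In control matrix-high cells Col14a1 passed 2-fold over matrix-low cells on 12 and 40 UMIs (1.07 and 0.433 CPM), though not in cells of 10000 UMIs or more (log2 0.97), and in the knockdown library it had too few UMIs to be tested. Macrophages held 94.5% and 91.9% of all Col14a1 UMIs of kept cells.

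The Col14a1 level was lower in macrophage droplets that held Hmga2 RNA, with intervals that lie apart in both libraries. Col14a1 stood at 53.1 CPM (49.96 to 56.3) in control macrophages with no Hmga2 UMI and 33.6 CPM (27.6 to 40.5) in those with at least 1, and at 42.5 CPM (39.4 to 45.9) and 12.9 CPM (10.1 to 16.2) in the knockdown library. Col3a1 had the opposite order, at 127 and 382 CPM and at 282 and 1041 CPM. The share of cells with a Col14a1 UMI was near equal in the control library, at 19.9% without and 19.4% with Hmga2. It was 13.5% and 8.07% in the knockdown library. The part of depth and of tumour RNA in the totals of these droplets was not tested. Col14a1 was found in 19.8% of control and 12.5% of knockdown macrophages, with at most 7 and 6 UMIs in a cell, and in 0.451% and 0.356% of T cells. Among macrophages with a Ptprc UMI it stood at 53.1 and 39.0 CPM. Between the libraries its log2 ratio in macrophages was -0.54 (-0.73 to -0.36), under 1.5-fold.

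Col15a1 was the other member at least 2-fold higher in macrophages in both libraries. It stood at 7.59 CPM (180 UMIs) in control and 4.601 CPM (99 UMIs) in knockdown macrophages, against 0.299 and 0.582 CPM in tumour-like cells. The log2 ratios over tumour-like cells were 4.66 (3.94 to 5.43) and 2.98 (2.29 to 3.69), and that of knockdown over control macrophages was -0.72 (-1.23 to -0.22). Macrophages held 82.2% and 61.5% of its UMIs. Its tumour-like UMIs were few and gathered in the cells with Xist and Pecam1 RNA, with 19 of 31 in the 33 control cells and 40 of 51 in the 44 knockdown cells with at least 2 Xist UMIs. Its 2-fold lower level in knockdown matrix-high cells rests on 1 UMI against 50 in matrix-low cells (log2 ratio -2.71, -8.42 to 0.19). Among cells with no Xist UMI the ratio was -0.24.

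**Figure D5:**
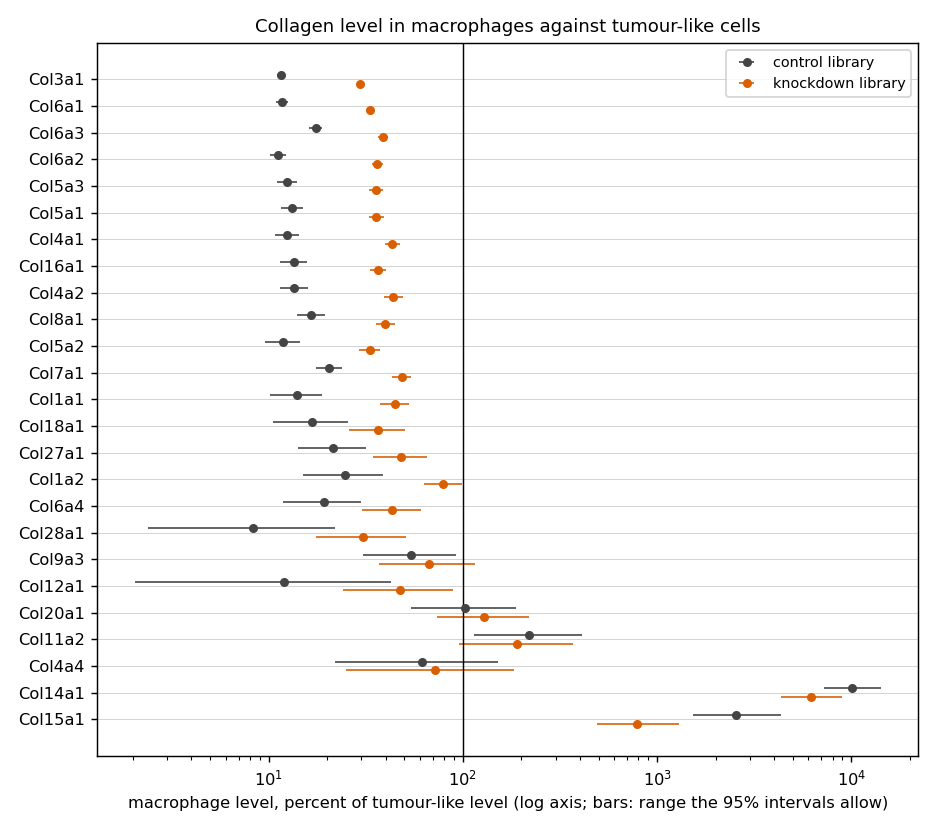
Level of each collagen gene in macrophages as a percentage of its level in tumour-like cells, on a log axis, in the control (grey) and knockdown (orange) library; points are single libraries, bars the widest ratios that the 95% intervals of its levels give, and the line 100%. The 13 leading genes lie between 11.2% and 20.5% in the control and between 29.5% and 48.3% in the knockdown library, and Col14a1 and Col15a1 lie far to the right.

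The other members were near the limit of detection. Col9a3, Col20a1, Col11a2 and Col4a4 stood at 2.18 CPM or less in every class of tumour-like cells, macrophages and T cells. In macrophages Col11a2 was at 218% (114 to 409, control) and 189% (95.2 to 367, knockdown) of its tumour-like level, and Col20a1 at 103% (54.2 to 188) and 128% (73.6 to 218). Of the 19 members with under 50 tumour-like UMIs, Col13a1 had 37 and Col24a1 36, Col23a1, Col19a1, Col8a2, Col17a1, Col6a6, Col25a1, Col4a3, Col6a5 and Col22a1 had between 11 and 22, and Col10a1, Col4a6, Col11a1, Col26a1, Col9a1, Col9a2, Col2a1 and Col4a5 had 7 or fewer. Among them are the type II and type X chains of cartilage and the transmembrane collagens. Col4a5 had no UMI in control tumour-like cells, which allows up to 0.0289 CPM with 3 counts taken as the limit, and 1 in the knockdown library.

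Genes that make, bind and remove collagen were read from 5 lists, chosen for their role. Of the enzymes and chaperones that hydroxylate and fold procollagen, 1 of 19 tested genes in the control and 1 of 18 in the knockdown library passed 2-fold between matrix-high and matrix-low cells, Fkbp14 in both. Over all genes tested 5.79% (control) and 3.51% (knockdown) were higher and 3.96% and 5.12% lower, the shares to set beside the counts of these lists. The list's sum was 3940 against 2842 CPM and 4365 against 3103 CPM, or 1.39-fold and 1.41-fold, where the collagen sum was 2.99-fold and 2.48-fold. Serpinh1, the collagen chaperone HSP47, stood at 665 and 479 CPM in control and 720 and 561 CPM in knockdown cells. Ppib, the prolyl isomerase cyclophilin B, P4hb, a subunit of prolyl 4-hydroxylase, and Plod2, a lysyl hydroxylase, were under 2-fold in both libraries. The median log2 ratio of the list was 0.52 in each library.

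Of the proteases and cross-linking enzymes of procollagen, 3 of 8 were higher in the control (Bmp1, Loxl1 and Loxl3) and 3 of 8 in the knockdown library (Bmp1, Pcolce and Loxl1), where Pcolce2 and Loxl2 were lower. Bmp1, the protease that removes the C-propeptide, stood at 99.4 and 40.0 CPM in control and 101 and 45.4 CPM in knockdown cells. Pcolce, its enhancer, stood at 352 and 177 CPM and at 502 and 205 CPM. Loxl3, a lysyl oxidase, stood at 23.4 and 10.9 CPM and at 26.7 and 14.0 CPM, and Lox itself was under 0.5 CPM in every class. Adamts14, which removes N-propeptides, was under 2-fold, at 15.4 and 20.2 CPM and at 20.9 and 24.4 CPM.

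Of 13 tested fibril-binding matrix proteins, 8 were at least 2-fold higher in control matrix-high cells and 7 in knockdown matrix-high cells, where Fbln2 was lower on 1 UMI against 49, and the list's median log2 ratio was 1.53 and 1.31. Fn1, fibronectin, stood at 1591 and 603 CPM in control and 1713 and 920 CPM in knockdown cells, and Matn2, matrilin 2, at 458 and 151 CPM and at 443 and 179 CPM. Sparc, a collagen-binding matricellular protein, was under 2-fold, and Thbs2, a thrombospondin, was lower than in matrix-low cells without reaching 2-fold. The collagenases and gelatinases Mmp2, Mmp9 and Mmp14 were all higher in both libraries, Mmp14 at 302 and 121 CPM and at 310 and 149 CPM. Among receptors Itgb1, Ddr2, Ddr1 and Mrc2 were detected. Mrc2, the uptake receptor Endo180, passed 2-fold in the control library at 50.4 and 23.0 CPM, Itga1 passed it there too, and none of 6 passed in the knockdown library.

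Between the libraries, Mmp2, a gelatinase, was lower in the knockdown in both classes, at 123 and 71.3 CPM in matrix-high cells (log2 ratio -0.78) and 48.8 and 24.9 CPM in matrix-low cells (-0.97). In matrix-low cells 7 of 12 tested fibril-binding genes were higher by 1.5-fold or more, where 5.13% of all genes were: Bgn, Ogn, Aspn, Fn1, Tnxb, Tnc and Thbs1. Bgn, the proteoglycan biglycan, stood at 9.20 CPM (control) and 26.7 CPM (knockdown, log2 ratio 1.54). In matrix-high cells Tnc, tenascin C, was higher (7.23 and 19.0 CPM, 1.39) and Lum, the proteoglycan lumican, was lower (5.45 and 2.36 CPM, -1.21). Loxl1 was higher in matrix-low cells (3.23 and 7.07 CPM, 1.13), and so was Ctsk, on 26 and 36 UMIs. No gene of the hydroxylation and folding list passed 1.5-fold in either class.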

How the data were processed

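The deposited matrices list whole UMI counts for each gene in each cell. Cell Ranger produced them, in version 6.1.0 per the file headers (the submitters' processing notes name 3.1.0). The genome build, the annotation and the end of the transcript that was sequenced are not given in the sources used here. Cells with under 200 genes or over 20% mitochondrial UMIs were left out, and the cells with the highest Scrublet scores were removed as doublets at 0.8% per 1000 cells (1148 control and 1322 knockdown cells). UMIs were summed by class and library and divided by all UMIs of that class, with exact Poisson intervals at 95% and exact binomial intervals for shares. A ratio's range runs from the lower bound over the upper bound to the reverse. With 1 library per group no test was made. A gene was tested, in the sense of compared with a fold threshold, with at least 50 UMIs over both groups, at 2-fold between classes and 1.5-fold between libraries. The computation was tested on simulated counts.

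The members, the gene lists and the rules were chosen with earlier results of these data known. Values were given for the 20 members with the most tumour-like UMIs and for Col11a2, Col14a1 and Col15a1, which passed a threshold. Col20a1 (past 1.5-fold between libraries in macrophages) and Col4a4 (past 2-fold in control T cells over tumour-like cells) were given in less detail. Of other genes, those past 1.5-fold between libraries, or the 4 of a list with the most UMIs, were named. The marker values are in the account of the classes. Promoter windows came from RefSeq (GRCm38.p6), and none of the data were mapped to that build here. Python 3.11.15, numpy 2.4.6, scipy 1.17.1, pandas 2.3.3, scanpy 1.11.5 and matplotlib 3.10.9 were used, and edgeR 4.0.16 in R 4.3.3 gave TMM factors as an alternative scaling.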

Additional observations from a re-analysis of the deposited data

Results flagged for a closer look

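Col3a1 lay on opposite sides of 0 in the classes of tumour-like cells, with a log2 ratio of knockdown over control of -0.10 in matrix-high and 0.34 in matrix-low cells. The difference between these ratios was not tested, since each group had 1 library. The change of side did not fall at the cut. In the score range just below it Col3a1 stood at 2689 CPM (control) and 2534 CPM (knockdown), and in the lower ranges it was higher in the knockdown. The lowest range held 27.8% of control and 22.3% of knockdown tumour-like cells.

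Col1a1 and Col1a2 were also found in kept cells outside the tumour-like, macrophage and T cell classes, which enter no comparison above. In the knockdown library Col1a1 stood there at 30.6 CPM and Col1a2 at 11.9 CPM, above the 18.3 and 3.04 CPM of the control library.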

How the results depend on the processing

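No paired analysis was possible because each group had 1 library, and for the same reason no replicate could be left out. Over 103 single-gene results 1181 of 1232 alternatives kept the sign. The other 51 belong to results whose range includes 0, and no result whose range lay off 0 changed sign. The count of members higher in matrix-high cells ranged from 7 to 12 (control, 10 as reported) and from 5 to 7 (knockdown, 6 as reported). The share of all genes is not given for these alternatives, so the ranges describe the members only. The share of matrix-high cells moved from 14.5% to 14.9% and from 15.1% to 15.5%.

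The count of members that differ between libraries in matrix-high cells, 1 as reported, was 3 without doublet removal, 3 with cells of 10000 UMIs or more, 3 with Lyz2 and C1q under 2 per 10000, 3 with every cell weighted equally, 2 with the top 10%, 2 with the top 30%, 2 with genes of 10 UMIs or more and 0 with genes of 200 UMIs or more. In matrix-low cells, 4 as reported, it was 9 with genes of 10 UMIs or more, and 3 with 10000 UMIs or more, no Xist UMI, cells weighted equally, TMM, the median of ratios, genes of 200 UMIs or more or no Krt16 cells. Tested members numbered 24 (matrix-high) and 35 (matrix-low) with genes of 10 UMIs or more, and 16 and 20 with 200 or more. No share of all genes past the threshold is given for these settings, so the counts describe the members only. The summed log2 ratio in matrix-high cells (-0.05) was -0.076 without doublet removal, -0.076 with the top 30%, -0.12 with 10000 UMIs or more and -0.10 with Lyz2 and C1q under 2. In matrix-low cells (0.22) it was 0.23 with the split made within each library, 0.27 with the top 30%, 0.19 with 10000 UMIs or more, 0.25 with Lyz2 and C1q under 2, 0.21 with cells weighted equally, 0.16 with TMM, 0.16 with the median of ratios and 0.19 without Krt16 cells. TMM moved the median of all genes there from 0.06 to 0.00, and 17 of 25 members then lay above 0 instead of 20.

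The macrophage share of the collagen level, 14.7% (control) and 34.7% (knockdown), was 12.2% and 25.8% with a Ptprc UMI required, 9.88% and 23.4% with C1q at 30 or more, 42.4% and 52.8% without doublet removal, and 11.1% and 20.7% in cells with no Hmga2 UMI. The count of members that differ between libraries in macrophages, 19 of 22 as reported, was 6 of 23 without doublet removal (5.75% of all genes were higher and 1.53% lower) and 16 to 18 under the other definitions (8.96% to 11.3% higher, 1.42% to 1.62% lower). The Krt16 and Hmga2 alternatives, and all of those for this count, were chosen after the data were seen. The causes were not tested. Intervals cover counting error only, and members under 50 UMIs could not be compared at this depth.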
